A study of Drosophila melanogaster with 3 samples.

Results

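Exonic binding sites of the transcription factor Lola-RI away from gene starts were described in Drosophila melanogaster larvae. Of the 9202 reproducible peaks, 300 had their summit inside an annotated exon and more than 500 bp from every annotated transcription start site (TSS), which was 3.26% of the list (Wilson 95% interval 2.92 to 3.64). The summit is the base that the authors gave as a peak's centre of signal, and the reproducible list holds the peaks that passed the authors' irreproducible discovery rate (IDR) threshold. Each summit took the first class that held it, in the order 5′ UTR, coding exon, 3′ UTR and noncoding exon. The 300 peaks divided into 69 in 5′ UTRs, 50 in coding exons, 115 in 3′ UTRs and 66 in noncoding exons, and 296 of them lay in sequence of 1 class only.

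The material was the strain lola-RI-GFP, a transgenic line that expresses Lola-RI with eGFP at its C terminus, 1 of the isoforms of the BTB zinc finger protein Lola. There was 1 group of 3 biological replicates, each of whole wandering larvae of the third instar with both sexes pooled and age given as unknown, and no group without the tag or of another stage. Chromatin was sheared by sonication to 200 to 800 bp and precipitated with an antibody to GFP, although the labels give lola in their antibody field. The tissues of a whole larva are mixed, so a peak cannot be assigned to a cell type, and the sources used here do not name the promoter driving the fusion.

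The lola gene encodes many isoforms that share a BTB domain, which joins such proteins in pairs, and differ in the zinc fingers that can read DNA. The gene is known for its part in axon growth and in the maintenance of neuronal fate. Wandering larvae are about to form a puparium, a step driven by a pulse of the steroid hormone ecdysone. Exons are transcribed and, in coding sequence, translated, so a factor bound there sits on DNA that also carries a protein or RNA message. ChIP reports the DNA under a factor, whether it is contacted directly or through other proteins.

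The sequences below show 6-base words that were more frequent at the exonic summits than beside them. Capitals mark any of 4 words, read on either strand: AAAGCT, then AAAAGC, then AAGCTC and last the palindrome AAGCTT. The words overlap each other, and 3 of the 4 hold the 5 bases AAGCT. Each stretch is 30 bases of dm6, 5′ to 3′ on the strand of the host gene. The first set shows the AAGCT nearest to the summit in the 2 highest-scoring peaks of each exon class that had one within 50 bp, chromosome arms X, 2L, 3L and 3R only.
ftz-f1, 5′ UTR, chr3L:18800551-18800580, minus strand: aatatgctgaaaGAGCTTTcggagagcgag
CG9664, 5′ UTR, chr2L:3293723-3293752, minus strand: aaagttaggcgAAAGCTTcgaaatgtatca
Kdm2, coding exon, chr3R:9058008-9058037, plus strand: agcgttgccgagAAGCTCgaatcttcaaag
CG11905, coding exon, chr3L:16930655-16930684, minus strand: ggagaaaccagAAAAGCTacaggctctgcc
CG18577, 3′ UTR, chr3R:11196969-11196998, plus strand: cacgaatgtcgtAAGCTCtgcgacagctga
inc, 3′ UTR, chrX:1517188-1517217, plus strand: agccttccgaAAAAGCTCaagtgcgggaac
lncRNA:CR45054, noncoding exon, chr3R:10089493-10089522, plus strand: agagctgagcgcAAGCTTcgctcccgcagc
lncRNA:CR43493, noncoding exon, chrX:22488146-22488175, minus strand: agccgagagcAAAAGCTTTTggcattgaca

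The second set shows the 30 bases at the summit itself for the 4 highest-scoring peaks of each class on the same arms, whether or not they hold a word. Of these 16 stretches, 4 held at least 1 word, those of gce, Kdm2, gukh and lncRNA:CR45054.
ftz-f1, 5′ UTR, chr3L:18800592-18800621, minus strand: tgccaaatgcgtttggcgtcgcgtgtgtgt
bves, 5′ UTR, chrX:21060719-21060748, plus strand: caaacattttgaaaagggcagcagcaataa
CG9664, 5′ UTR, chr2L:3293707-3293736, minus strand: ttcgaaatgtatcagtcattaggaacaaat
gce, 5′ UTR, chrX:15306471-15306500, plus strand: gagggcgtgcgtgaGAGCTTgccgaaagag
Kdm2, coding exon, chr3R:9058019-9058048, plus strand: gAAGCTCgaatcttcaaagttcgcgcaggc
CG11905, coding exon, chr3L:16930672-16930701, minus strand: gacagctccagcgagttggagaaaccagaa
Ziz, coding exon, chr2L:7495589-7495618, minus strand: agagagcaggatggagcgaaagtttacgcg
gukh, coding exon, chr3R:19017493-19017522, plus strand: gttccgggcAAAAGCTCtccggccaagaat
CG18577, 3′ UTR, chr3R:11196983-11197012, plus strand: gctctgcgacagctgatgaaatcaaagagc
inc, 3′ UTR, chrX:1517234-1517263, plus strand: agaagcagtatgacaatcagcagttcagtg
CG17027, 3′ UTR, chr3L:15981509-15981538, plus strand: tcagctgcactgccaattggcgctcgaagc
Pdp1, 3′ UTR, chr3L:7815901-7815930, minus strand: ctttttgcctttaacgtagcatacttccga
lncRNA:CR45054, noncoding exon, chr3R:10089487-10089516, plus strand: aaaatcagagctgagcgcAAGCTTcgctcc
lncRNA:CR43626, noncoding exon, chr3L:3252222-3252251, plus strand: actgctttaagtaaagttaagtaaagtaaa
lncRNA:CR43493, noncoding exon, chrX:22488118-22488147, minus strand: cattgaacagtcagctgttgggaagaagca
lncRNA:Vinr, noncoding exon, chrX:12751323-12751352, plus strand: tgatatatgccaatcccttacatgtttctg

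The word AAAGCT lay within 50 bp of the summit in 85 of the 300 exonic peaks, 28.3% (Wilson 95% interval 23.5 to 33.7). It was found in 5.33% (3.8 to 7.43) of windows of the same width 500 bp to either side of the same peaks, and in 5.05% of all tiles of that width of exon away from promoters. The replicates gave 29.9%, 25.3% and 30.9% (mean 28.7% ± 3.01 SD, n = 3) and all lay above the flanks and the tiles. The word had been taken as the leading 6-mer of the remaining IDR peaks, not of the exonic ones, where it stood at 23.2% of summits and 5.62% of flanks. When only the highest-scoring of overlapping peaks was kept, the exonic share was 31.7%.

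Coding exons held the word most often. It was present at 21 of 50 coding summits, 42.0% (29.4 to 55.8), against 6% (2.78 to 12.5) of the flanks and 4.50% of coding tiles. The replicates gave 46.3%, 43.5% and 44.4% for coding summits. The interval did not overlap that of the intronic peaks, which had 22.5% (20.9 to 24.1), and the coding share was the higher in all 3 replicates, with intronic shares of 21.1%, 18.7% and 26.7%. Score moves with both values: among the 4601 highest-scoring peaks the word stood at 14 of 28 coding summits (Wilson 95% interval 32.6% to 67.4%) and at 30.9% (28.4 to 33.6) of intronic ones, and there the intervals overlapped. Its part in the difference was not tested.

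The other exon classes lay closer to introns. The word was at 23.2% (14.8 to 34.4) of 5′ UTR summits, 26.1% (18.9 to 34.8) of 3′ UTR summits and 27.3% (18 to 39) of noncoding summits. Their flanks held it at 5.80%, 5.65% and 3.79%. Each of the 4 classes therefore had a summit interval that lay wholly above its flank interval, and the 4 classes had intervals that overlapped each other. The plot of word shares by class shows this pattern.

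**Figure D1:**
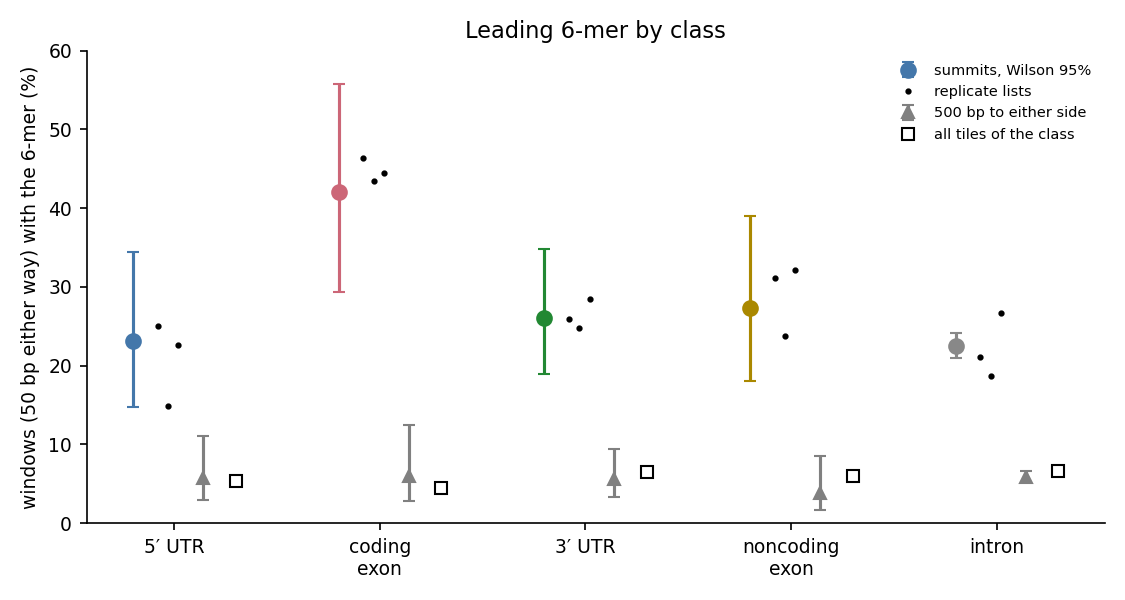
Share of windows reaching 50 bp to either side with the leading 6-mer, in percent, for the 4 exon classes and for intronic peaks. Filled circles are IDR summits with Wilson 95% intervals, small dots the 3 replicate lists, triangles the windows 500 bp to either side and open squares all tiles of the class. Coding summits stand highest at 42.0%, and flanks and tiles lie between 3.79% and 6.67% throughout.

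The other words followed at lower levels. AAAAGC was at 22.3% of exonic summits and 9.33% of flanks. AAGCTC was at 17.3% and 3.50%, and the palindrome AAGCTT at 12.7% and 2.33%. Words of A and T alone behaved otherwise: TTAAAA stood at 16.7% (12.9 to 21.3) of exonic summits and 16.8% (14.1 to 20) of their flanks, while in the remaining IDR peaks it stood at 25% of summits and 15.7% of flanks. TAAAAA had 19.0% of exonic summits and 20.5% of flanks. TTTAAA had 8.67% and 8.33%.

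The 5 bases AAGCT were within 50 bp in 107 exonic peaks, 35.7% (30.5 to 41.2), against 14.8% (12.2 to 17.9) of flanks. Of these 107 peaks, 47 had more than 1 match within 50 bp. Each palindrome AAGCTT, which 38 exonic peaks held, counted as 2 matches, so the 47 include peaks with a single site. In 42 of the 107 a match lay within 10 bp of the summit and in 65 within 20 bp, with a median distance of 15 bp. The share followed the score. With the IDR list divided by score into 5 bins of equal size, the highest bin held 67 exonic peaks and 46 of them had the 5 bases, 68.7% (56.8 to 78.5), against 53.8% (48.9 to 58.6) of intronic and 58.5% (55.6 to 61.3) of promoter peaks. In the next bins the exonic share was 36.2%, 31.5%, 20.6% and 20.3%, and the last of these was near the intronic 20.3% and the 16.7% of all exonic tiles.

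**Figure D2:**
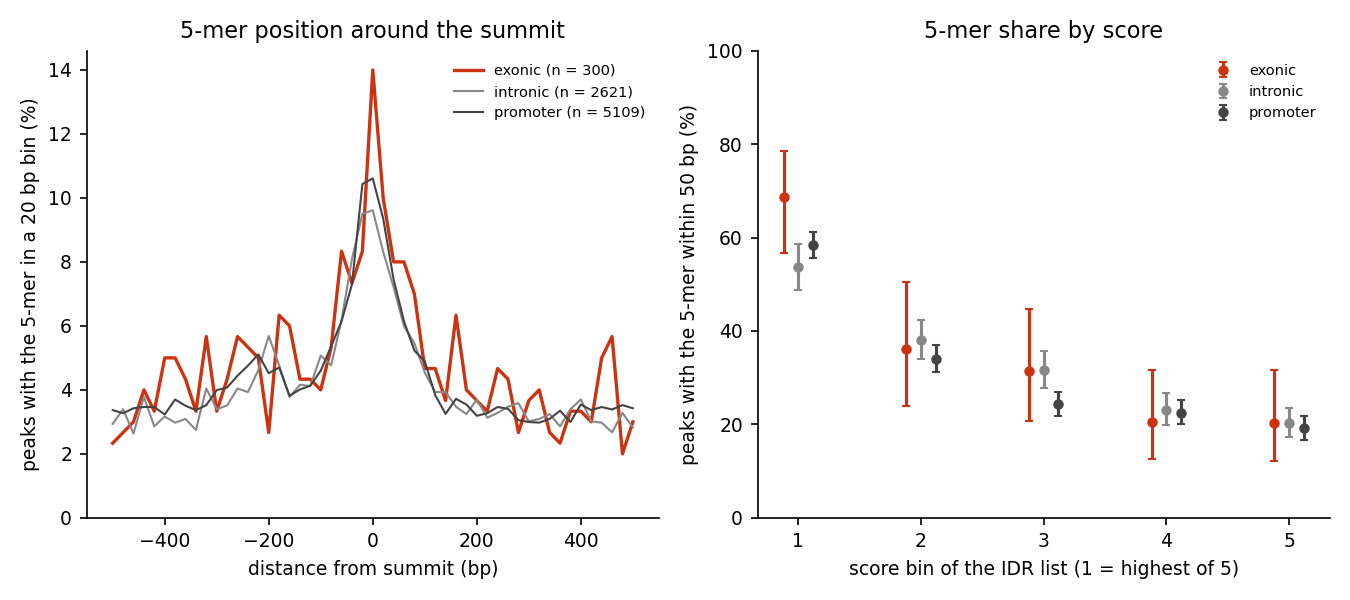
Left, share of peaks with the 5-mer in each 20 bp bin by distance from the summit in bp, for exonic, intronic and promoter peaks. Right, share of peaks with the 5-mer within 50 bp by score bin, 5 of equal size, with Wilson 95% intervals. All 3 kinds of peak show a maximum at the summit, and the exonic share runs between 68.7% in the highest bin and 20.3% in the lowest.

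Among 20 listed motifs, 1 stood apart between exonic summits and flanks by intervals that did not overlap. The GAGA element, searched as GAGAG on both strands and known as the site of GAGA factor, was at 61 summits, 20.3% (16.2 to 25.2), and at 12.2% (9.79 to 15) of flanks. Replicate 1 was lower, with 14.4%, while replicates 2 and 3 gave 21.1% and 22.7%, against flanks of 11.5%, 11.9% and 11.8%. The summit share was the higher in all 3 replicates, but the exact sign-flip permutation test over replicates gave p = 0.25, two-sided, the smallest that 3 can give. Promoter peaks had GAGA at 17.3% (16.3 to 18.4) of summits and 12.6% (11.9 to 13.2) of flanks, intervals that were also apart. Intronic peaks had 17.0% (15.6 to 18.5) and 15.4% (14.4 to 16.4). The exonic interval held both the promoter and the intronic summit share. By exon class the 5′ UTR peaks were highest, with 23 of 69, 33.3% (23.4 to 45.1), against 15.2% (10.2 to 22.1) of their flanks. With windows of 25 bp to either side, or with peak midpoints in place of summits, no motif of the list stood apart.

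Other elements of gene promoters were rare at exonic summits or varied by exon class. The DRE, bound by the transcription factor DREF, was at 2 of 300 exonic summits, 0.667%, against 2.52% of promoter peaks. The site of M1BP and that of Ftz-f1 were at 0 of 300, which allows up to 1.26% by the Wilson interval. The TATA box, searched as TATAAA, was at 13.3% of all exonic summits and 13.8% of flanks, but the classes differed. In noncoding exons it was at 17 of 66 summits, 25.8% (16.7 to 37.4), against 9.85% (5.85 to 16.1) of flanks and 12.5% of tiles. The replicates gave 27.9%, 22.2% and 21.4% at noncoding summits. Intronic summits also lay above their flanks, with 20.1%, 19.0% and 15.2% in the replicates against 12.2%, 12.3% and 13.3%. Median GC was lower at summits than at flanks in noncoding exons (33.7% against 43.6%) and introns (36.6% against 40.6%). The part of GC in the TATA box shares was not tested. In coding exons the TATA box was at 0 of 50 summits, which allows up to 7.13% by the Wilson interval. It was at 14% (8.53 to 22.1) of their flanks and 2.68% of coding tiles. The replicates had it at 2.44%, 0% and 1.59% of coding summits.

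The polyadenylation signal of mRNA ends, AATAAA, was at 21.3% of all exonic summits and 20.2% of flanks. Coding exons had it at 1 of 50 summits, 2% (0.354 to 10.5), against 17% (10.9 to 25.5) of flanks and 3.76% of coding tiles. Of 80 pairs of motif and exon class, 4 had intervals that did not overlap: these 3 and GAGA in 5′ UTRs. The remaining motifs were the BEAF site CGATA, the E-boxes CACGTG as one and CAGCTG as the other, the GATA site AGATAAG, the Zelda site CAGGTAG, the nuclear receptor core site AGGTCA, which EcR can read, the AP-1 site TGANTCA, the Pho site GCCATTT, the initiator TCAGTT, the CA repeat, the CAG repeat and the sites of Grainyhead, CREB and Ewg. Their exonic summit and flank intervals overlapped, at shares between 0% and 14% of summits. Such matches describe letters in a window only.

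Base composition differed by exon class. Median GC content within 50 bp of the summit was 54.5% in coding exons, 43.6% in 5′ UTRs, 38.6% in 3′ UTRs and 33.7% in noncoding exons. All tiles of these classes had medians of 53.5%, 45.5%, 34.7% and 42.6%. The flanks of the same peaks had 46.5%, 42.1%, 40.6% and 43.6%. Summits in 3′ UTRs thus had more GC than 3′ UTR tiles and less than their own flanks, and those in noncoding exons less than both. Over all 300 the median was 41.6% at summits and 42.6% at flanks, and the replicates gave 40.6%, 41.6% and 43.6% at summits.

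The density of peaks differed widely between exon classes. Exons away from promoters make up 19.8% of the 6 chromosomes and held 11.3 peaks per Mb, with 11.1 ± 0.760 over the replicates (SD, n = 3). Coding sequence held 2.72 per Mb, 3′ UTRs 19.4, noncoding exons 61.9 and 5′ UTRs 66.2. Introns held 49.6 per Mb and promoters 282. The order of the classes at this limit was the same in each replicate: coding exons had 2.23, 2.50 and 3.42 per Mb, 3′ UTRs 18.9, 19.1 and 20.8, noncoding exons 57.2, 59.1 and 52.5, and 5′ UTRs 61.4, 64.2 and 71.9. Noncoding exons and 5′ UTRs were nearest to each other, and their replicate ranges did not overlap. Their order depended on where a promoter ends. Counted beyond 1000 bp, 5′ UTRs held 40.2 per Mb and noncoding exons 56.5, with replicate values of 33.5 to 48.5 and 53.3 to 56.5.

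**Figure D3:**
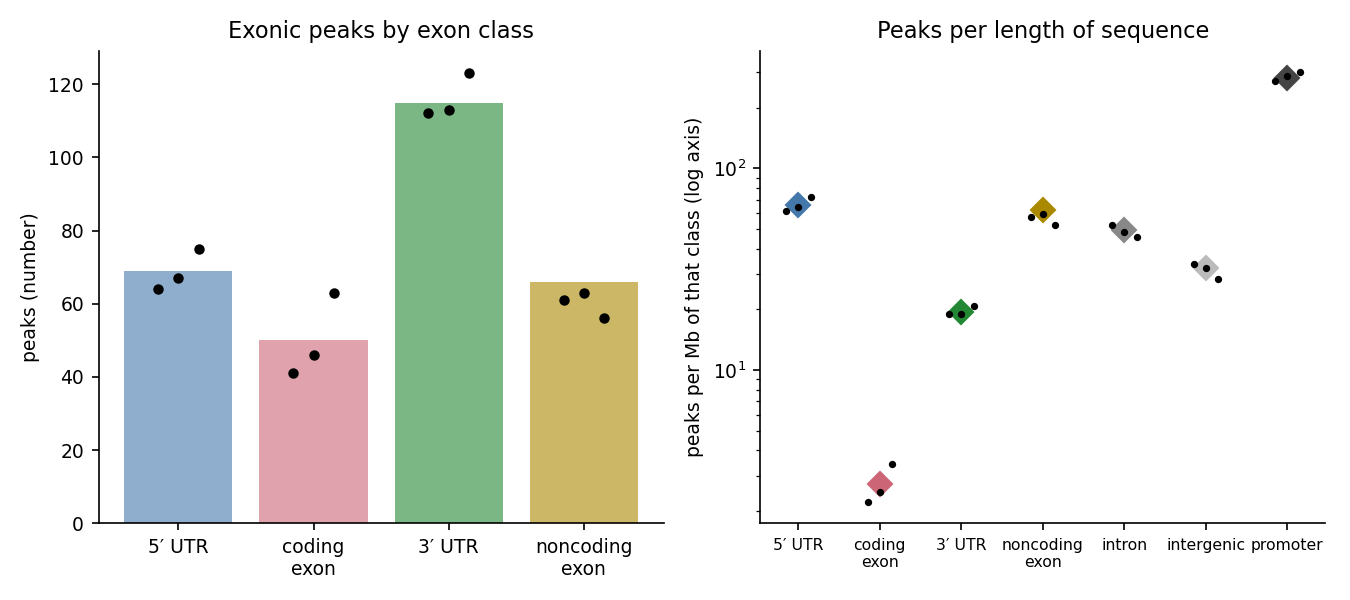
Left, number of exonic peaks per exon class, with bars for the IDR list and points for the 3 replicate lists. Right, peaks per Mb of each class on a log axis, with diamonds for the IDR list and dots for the replicates. The 3′ UTR holds the most peaks, 115, while coding exons hold the fewest per length, 2.72 per Mb.

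By number, replicate 3 was the highest in 3 classes and the lowest in the fourth. Replicates 1, 2 and 3 had 64, 67 and 75 peaks in 5′ UTRs, 41, 46 and 63 in coding exons and 112, 113 and 123 in 3′ UTRs. Noncoding exons had 61, 63 and 56. The total was 278, 289 and 317 (3.02%, 3.14% and 3.44%, mean 3.20% ± 0.219 SD). Each replicate list was shortened to its 9202 highest-scoring peaks so that the lists were of 1 length. The class counts depend on where a promoter ends. With 250 bp as the limit there were 138 peaks in 5′ UTRs and 107 in noncoding exons, and with 1000 bp there were 24 and 35.

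Exonic summits thinned out toward the limit of 500 bp. Another 1521 exonic summits lay within it, 49 of them at more than 400 bp, and 32 of the 300 lay no farther than 600 bp. The nearest outside were in amn, a neuropeptide gene, at 502 bp with rank 5025, in lncRNA:CR43704 at 509 bp with rank 7044 and in lncRNA:CR44363 at 510 bp with rank 2135. Ranks count from 1 at the highest score of the IDR list, and the score is the authors' own value on a scale that no source used here explains. Replicate ranks below are those of the highest-scoring summit within 100 bp in the full list of that replicate. The nearest inside were in Achl at 498 bp with rank 5846, in lncRNA:CR45036 at 498 bp with rank 6511 and in Mekk1, a kinase gene, at 497 bp with rank 7778. No summit of the 300 lay within 500 bp of a transcript start in the RefSeq annotation of the same assembly. How far RefSeq shares gene models with the annotation used here was not examined, and starts missing from both would go unseen.

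Fewer exonic peaks of the pooled list reached the reproducible list than peaks elsewhere. Of 1900 exonic peaks in the pooled list, 15.8% (Wilson 95% interval 14.2 to 17.5) passed, against 30.7% of all pooled peaks. Coding peaks passed least, 50 of 701 or 7.13% (5.45 to 9.28). The 3′ UTR peaks passed at 19.2%, noncoding ones at 21.6% and 5′ UTR ones at 23.5%. Intronic peaks passed at 20.6% (19.9 to 21.3), an interval that lay above those of all exonic and of coding peaks.

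Those that passed were found again much like other peaks. In all 3 shortened replicate lists, 217 of 300 exonic peaks were overlapped by at least 1 bp, 72.3% (67.0 to 77.1), against 74.7% of all IDR peaks. Single replicates gave 89.0%, 86.0% and 88.7%. Coding peaks had 82.0% (69.2 to 90.2), 5′ UTR peaks 75.4%, 3′ UTR peaks 68.7% and noncoding peaks 68.2%. In the full replicate lists it was 283 exonic peaks, 94.3%, against 96.2% of all IDR peaks. Recovery went with score, and much alike in the whole list. It was 100% of the 67 exonic peaks in the highest score bin and 26.6% of the 64 in the lowest. All IDR peaks had 99.9% and 24.7% in these bins.

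Exonic peaks ranked in the middle of the list. Their median rank was 4556.5, or 49.5% of the way down, against 55.1% for intronic and 47.1% for promoter peaks. In replicates 1, 2 and 3 the exonic median was 49.7%, 48.7% and 50.9%, against 54.2%, 53.7% and 55.8% for introns. The difference, exonic minus intronic, was -4.57, -4.93 and -4.88 percentage points, a higher score position for exonic peaks in 3 of 3 replicates. The exact sign-flip permutation test gave p = 0.25, two-sided, the smallest possible with 3 replicates, so the threshold of 0.05 was out of reach.

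Part of the exonic peaks touched promoter signal. Of the 300, 34 overlapped a promoter peak or covered a TSS with their interval, and these had a median rank of 31.4% of the list. Overlap with a promoter peak occurred in 27 (9%) exonic and 139 (5.30%) intronic peaks, and 24 (8%) exonic and 125 (4.77%) intronic peaks covered a TSS. Without such peaks in either class the medians were 56.4% for exonic and 57.1% for intronic peaks, a difference of -0.72 points in the IDR list, with -0.85, -3.25 and -4.85 in the replicates. Leaving them out thus moved the IDR difference to near 0 and kept its sign in each replicate.

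Coding peaks had a median rank of 42.6% of the IDR list, 5′ UTR peaks 49.2%, noncoding peaks 50.4% and 3′ UTR peaks 57.7%. The order of the classes was not the same in each replicate. In replicates 1, 2 and 3 the coding medians were 42.1%, 46.0% and 50.2%, and the noncoding ones 49.0%, 44.9% and 49.6%. Those of 5′ UTR peaks were 49.4%, 54.3% and 47.3%, and those of 3′ UTR peaks 59.1%, 51.2% and 52.7%. Coding peaks thus stood highest in replicate 1, noncoding peaks in replicate 2 and 5′ UTR peaks in replicate 3, and the difference of 3′ UTR peaks from introns changed sign (4.87, -2.47 and -3.09 points). The coding median lay above that of introns in all replicates, by -12.1, -7.63 and -5.54 points (exact sign-flip permutation p = 0.25), and without peaks in contact with promoter signal by -10.3, -8.50 and -6.23.

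**Figure D4:**
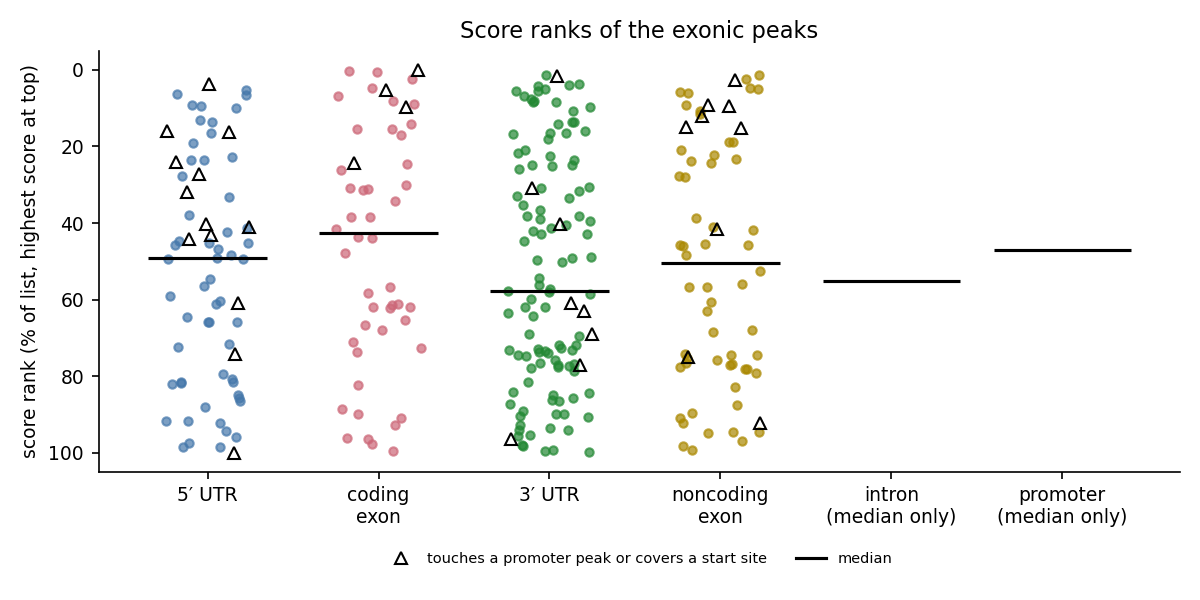
Score rank of each exonic peak as percent of the IDR list, with the highest score at the top, by exon class. Triangles mark peaks that touch a promoter peak or cover a TSS and lines give medians, 42.6% for coding exons and 57.7% for 3′ UTRs, with the intronic median of 55.1% and the promoter median of 47.1% for comparison.

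Peaks in coding exons included some of the strongest of the whole list. The highest, at rank 3, lay in Pabp2, which encodes a poly(A)-binding protein of the nucleus, in the second of 6 exons at codon 13 of 224, with ranks 4, 2 and 4 in replicates 1, 2 and 3. Its interval covered a TSS, and the gene had no promoter summit. At rank 22 was Kdm2, a gene for a JmjC-family histone demethylase, at codon 79 of 1345 and 4742 bp from the nearest TSS, with replicate ranks 28, 23 and 15 and the interval chr3R:9057026-9058709. The homeobox gene otp followed at rank 48, at codon 385 of 416 in the last of its 8 exons, with replicate ranks 65, 20 and 61. These 3 peaks were high in all replicates and lay at the start, near the start and near the end of the protein.

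The next coding peaks were at CG2121 with rank 231, CG11905 with rank 449 and Ziz, a guanine nucleotide exchange factor gene, with rank 476 at codon 2. Then came gukh, a gene for a partner of the synaptic scaffold protein Dlg, at rank 627, and Faa, for an enzyme of tyrosine breakdown, at rank 757. The mucin gene Mur89F had rank 832 and CG18765 rank 889. Ziz and CG18765 touched promoter peaks. The remaining 8 of the 10, Pabp2 among them, did not overlap one. The replicates were close for CG2121, with ranks 255, 189 and 257, and far apart for Faa, with ranks 1471, 384 and 878.

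Peaks in 3′ UTRs were led by CG30278 at rank 123 and CG18577 at rank 149. The interval at CG18577 overlapped a promoter peak, with the TSS of cu 595 bp away. Then came wal, a mitochondrial electron transfer flavoprotein gene, at rank 331, and inc, a gene for a BTB adaptor of a ubiquitin ligase that acts in sleep, at rank 372. EcR, the ecdysone receptor gene, was at rank 395, with replicate ranks 516, 329 and 399. CG17027 had rank 458 and mlt, which encodes a tubulin-binding protein, the rank just after 500. The summits of CG30278, wal, inc and mlt lay 26, 142, 111 and 206 bp from a transcript end, whereas that of EcR lay 1249 bp from one.

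Peaks in 5′ UTRs were led by ftz-f1, a nuclear receptor gene of the ecdysone cascade, at rank 335 and 703 bp from the TSS, with replicate ranks 355, 296 and 371. It shared the interval chr3L:18799900-18802041 with the promoter peak of rank 4. CG46385 followed at rank 482, CG3829 at 588, bves, a Popeye domain gene, at 608 and CG9664 at 839. The juvenile hormone receptor gene gce had rank 875, with its summit 5976 bp from the nearest TSS, and Cipc rank 909, with its summit 7821 bp from one. Unlike ftz-f1, the other 6 overlapped no promoter peak.

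Noncoding exons belonged to 59 peaks in long noncoding RNAs, 6 in antisense RNAs and 1 in a pseudogene. The absence of tRNA and small nucleolar RNA genes carries no information. In a gene shorter than 500 bp every base is within 500 bp of its own TSS, so the rule leaves it out. The highest was lncRNA:CR45054 at rank 127, on chr3R:10088470-10090244. lncRNA:CR43626 carried 2 summits in 1 interval, at ranks 226 and 527. lncRNA:CR43493 at rank 234 overlapped the promoter peak of rank 45. lncRNA:Vinr had rank 429, lncRNA:CR43974 rank 454 and lncRNA:CR45328 rank 557. Of the 66 exons, 43 were the only exon of the transcript, the median exon length was 1488 bp, and 19 of the 66 summits lay inside another gene as well.

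Peaks in 3′ UTRs and noncoding exons were frequent near transcript ends. Of all 300, 141 were within 500 bp of an annotated transcript end, 47.0% (41.4 to 52.7), and the replicates gave 47.5%, 45.3% and 47.6%. All exonic bases away from promoters had 28.6%. Coding exons made up 18.4 of these 26.4 Mb but held 50 of the 300 peaks. The shares of peaks and of bases thus differ in class mix, whose part was not tested. Intronic peaks had 2.86% against 2.55% of intronic bases. Intergenic peaks, in no exon, had 19.4% (17.2 to 21.7) against 6.23% of intergenic bases. The 3′ UTR peaks had 95 of 115, 82.6% (74.7 to 88.5), against 68.7% of 3′ UTR bases, and noncoding peaks 60.6% (48.5 to 71.5) against 46.4% of their bases. Within 100 bp of an end were 38 of the 115, 33.0% (25.1 to 42.1), against 25.5% of 3′ UTR bases. Coding peaks had 10% (4.35 to 21.4), against 16.0% of coding bases, and 5′ UTR peaks 1.45% against 3.55%.

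Toward the gene start, 5′ UTR peaks were more frequent than their bases. Of these, 45 of 69 were no more than 1000 bp from a TSS, 65.2% (53.4 to 75.4), against 42.7% of 5′ UTR bases, and the replicates gave 64.1%, 70.1% and 61.3%. Coding peaks had 20% (11.2 to 33.0), against 23.6% of their bases. The 3′ UTR peaks had 22.6% (15.9 to 31.1) against 16.3%, and noncoding peaks 47.0% (35.4 to 58.8) against 42.0%. Intronic peaks had 20.2% (18.7 to 21.8) against 8.35% of intronic bases, so peaks outside exons were nearer to TSSs than their bases as well. The median distance to the nearest TSS was 1268 bp over all 300 and ran between 502 and 26977 bp.

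**Figure D5:**
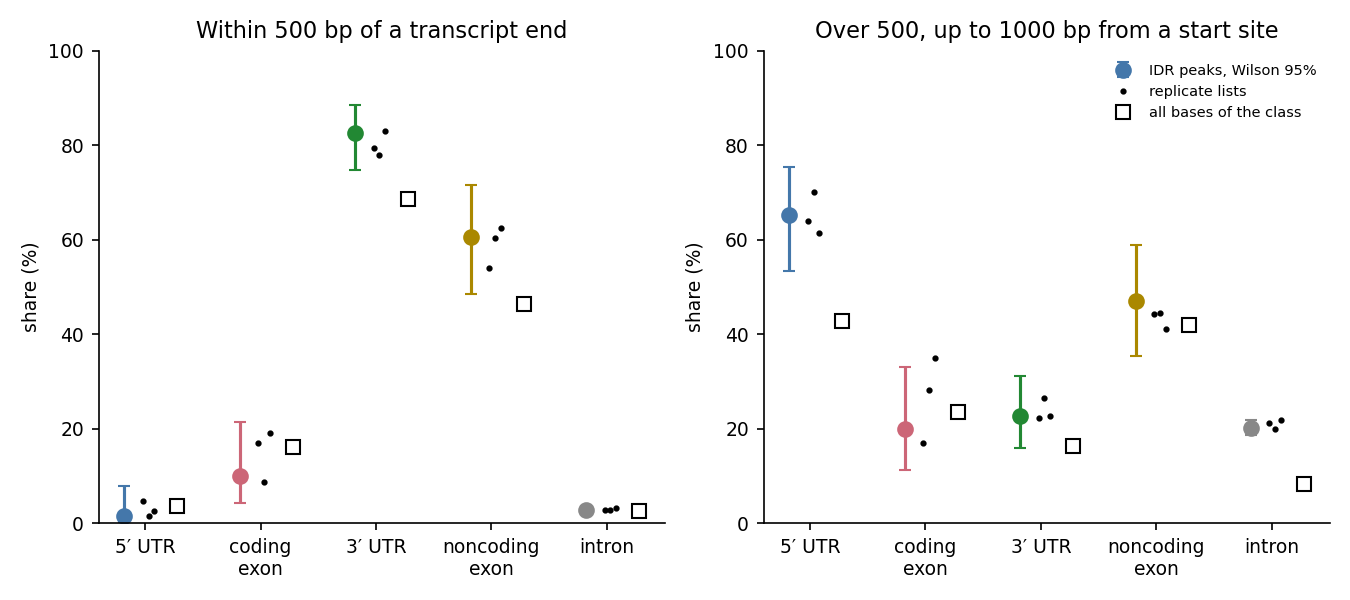
Share of peaks in percent within 500 bp of a transcript end (left) and over 500 and up to 1000 bp from a TSS (right), by class. Filled circles are IDR peaks with Wilson 95% intervals, dots the replicate lists and open squares all bases of the class. Peaks in 3′ UTRs stand above their bases on the left, 82.6% against 68.7%, and peaks in 5′ UTRs on the right, 65.2% against 42.7%.

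The nearest TSS belonged to the host gene for 184 of the 300 peaks. In 72 the summit lay upstream of another gene's TSS, and 38 of these were 3′ UTR peaks. Last exons held 183 of the 300. Most of these follow from the exon class, since 113 of the 115 3′ UTR peaks and 59 of the 66 noncoding peaks were in one. Within coding exons the summit was in the last exon for 7 of 50. No share over all exonic bases was taken for the counts in this paragraph, so they show no preference of the peaks.

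The 300 peaks lay in 271 genes, of which 212 were protein-coding, 58 noncoding RNA genes and 1 a pseudogene. Of these genes, 242 had a single exonic peak, 25 had 2 and 4 had 3. Among the 300 peaks, 89 overlapped another IDR peak and 243 overlapped none of higher score. Several peaks in 1 gene can thus be neighbouring summits of overlapping intervals and need not be separate binding sites. An IDR summit within 500 bp of a TSS was present at 163 of the 271 hosts, 60.1% (54.2 to 65.8), against 29.1% of all genes and 34.0% of protein-coding genes. The replicates gave 59.6%, 62.1% and 60.3%. Hosts of 5′ UTR peaks had 84.1% (73.2 to 91.1), hosts of coding peaks 62.2% (47.6 to 74.9), hosts of 3′ UTR peaks 61.5% (52.1 to 70.1) and hosts of noncoding peaks 32.2% (21.7 to 44.9), beside 12.5% of noncoding RNA genes. Genes with an intronic peak had 73.6% (71.0 to 76.0). Gene length and number of TSSs were not matched between these sets.

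The 4 genes with 3 exonic peaks carried them in different ways. Pdp1, which encodes a bZIP factor of the circadian clock, had 2 in its 3′ UTR at ranks 521 and 2315 and 1 in a 5′ UTR at rank 8486. The corepressor gene spen had 3 in 1 5′ UTR exon, at ranks 2170, 4152 and 4553. In bif, a gene for a cytoskeletal regulator, 3 lay in 1 coding exon, at codons 112, 191 and 720 of 1305, with ranks 3817, 5215 and 5717. Glut4EF, a transcription factor gene, had 3 in its last exon, 25949 to 26977 bp from the nearest TSS, at ranks 4615, 8258 and 8777. The lowest of the Glut4EF peaks had no summit within 100 bp in replicate 1 and ranks 8780 and 7852 in the others.

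The gene lists differed in their share of hosts. Over all 18164 genes, 1.49% hosted an exonic peak. The highest shares, 17.4%, were those of the ecdysone and receptor tyrosine kinase lists, followed by 14.3% of the lipid list, and 4 lists had none. Shares count only genes found in the annotation under the listed symbol, which were 23 of 28 in the ecdysone list. The ecdysone share would be lower if the missing symbols stood for genes that were not hosts. Of 23 ecdysone response genes 4 did: ftz-f1 and EcR, described above, Hr39 at rank 2835 in a coding exon and Hr4 at rank 7755 in the 3′ UTR, and these too encode nuclear receptors. Hr39 had replicate ranks 4034, 3160 and 2211. The peak of Hr4 had no summit within 100 bp in replicate 1 and ranks 9343 and 7870 in the others.

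Of 23 genes of the receptor tyrosine kinase pathway 4 were hosts. The kinase gene Raf had a 5′ UTR peak at rank 1259, beside a promoter summit of rank 208. The ETS repressor gene aop had 2 in 1 5′ UTR exon, at ranks 1761 and 7539, and no promoter summit. Egfr, the receptor, had a 5′ UTR peak at rank 5430. The phosphatase gene csw had a 3′ UTR peak at rank 7071. The Raf peak had ranks 999, 968 and 2155 in replicates 1, 2 and 3, and the higher of the aop peaks 2099, 2547 and 1409. Raf was thus first in replicates 1 and 2 and aop in replicate 3.

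Among 35 genes for RNA-binding and splicing proteins, Pabp2, mub at rank 2063 in the 3′ UTR and Imp at rank 3801 in the 5′ UTR were hosts. Among 14 lipid genes there were FASN2, a fatty acid synthase gene, at rank 2846, and Lsd-2, a perilipin gene, at ranks 2817 and 9163, all in 3′ UTRs. The FASN2 interval overlapped the promoter peak of rank 240, with the FASN1 TSS 646 bp away. Single hosts were the aldolase gene Ald1 at rank 7931 (of 14 glycolysis genes) and the BTB gene lov at rank 2907 (of 20). The Notch inhibitor gene numb at rank 7879 was 1 of 23, and the profilin gene chic at rank 6842 was 1 of 23 cytoskeletal and muscle genes. The heat-inducible lncRNA:Hsromega at rank 6843 was 1 of 10 named long noncoding RNAs. No gene was a host among 37 of chromatin and insulator proteins, 22 of heat shock proteins, 22 of translation and 25 of cuticle proteins. With 1.49% of all genes as hosts, a list of such a size can hold none without differing from all genes. The lists were small and their genes differ in exon length.

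By chromosome, X held 69 of the 300 among 1671 IDR peaks, 4.13%, and 2L 3.51%, 2R 3.34%, 3R 2.87% and 3L 2.72%. Chromosome 4 held 0 exonic peaks among its 33.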

How the data were processed

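ChIP-seq peaks of 3 biological replicates of 1 group were analysed. Per the deposited descriptions, the authors called peaks for every replicate and for the pooled replicates, with 1 control file. The control library was not analysed here. The sources used here do not give the aligner, the caller, versions or the IDR threshold. Each list held 30000 peaks, and all 9202 IDR peaks were in the pooled list. Each peak's score is as deposited by the authors and served only for ranks inside a list. The deposited −log10 q value was 1 value for all IDR peaks and was not used. The deposited summit offset, counted from the peak start, gave the summit. Coordinates are dm6, per the labels, and 1-based.

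TSSs and exons came from Ensembl release 115 gene models, 18164 genes on 6 chromosomes, with transposable elements left out, and sequence from the RefSeq copy of the release 6 genome, whose chromosome lengths fit the peaks. Replicate lists were shortened to 9202 peaks. Shares have Wilson 95% intervals. The lists hold no read counts, so their depth is unknown and the intervals stand for counting error in numbers of peaks or genes. Peaks are not replicates, and the IDR list comes from these same replicates. Nothing in the labels says whether replicates came from separate crosses. Differences over replicates had a two-sided exact sign-flip permutation test. All bases and all tiles of each class (as wide as the windows of 50 bp to either side of a summit) served as description. The 6-mers were ranked by summit share minus flank share (500 bp to either side) in the IDR peaks outside the exonic set.

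Members, gene lists, motifs and tests were chosen with earlier results of these data known. Of 300 listed genes, 287 were in the annotation. Genes were named by rule: the hosts of the 7 highest-scoring peaks per exon class (10 for coding exons), the 3 summits nearest to 500 bp on either side, genes with 3 or more peaks and listed genes with a peak. The use of the 6-mers and of contact with promoter signal was chosen after seeing the data. Classification and motif search were tested on simulated data. Python 3.11.15, numpy 2.4.6, pandas 2.3.3, scipy 1.17.1 and matplotlib 3.10.9 were used. Alternatives were other promoter limits, gene sets, windows, overlaps, list lengths and single replicates left out.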

Additional observations from a re-analysis of the deposited data

How the results depend on the processing

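The exonic minus intronic difference in median rank kept its sign under the alternatives tried, and 51 of 149 values moved by more than the spread between replicates, the Wilson interval or a factor of 1.5 for counts. That difference was -5.60 points in the IDR list, -3.60 with promoters ending at 250 bp, -7.75 at 1000 bp, -6.63 among the 4601 highest-scoring peaks, -6.72 with peak midpoints and -0.72 without peaks in contact with promoter signal. The order of 5′ UTRs over noncoding exons, 69 against 66 peaks, turned at 1000 bp and with midpoints (59 against 60). With promoters ending at 250 bp the exonic share of IDR peaks was 4.83%, with 138 peaks in 5′ UTRs and 107 in noncoding exons, 51.5% of hosts with a promoter summit and 18% of exonic pooled peaks in the IDR list. With 1000 bp these values were 2.04%, 24, 35, 66.9% and 14%, and 50% of peaks were within 500 bp of a transcript end. With protein-coding genes only, the share was 2.67%, noncoding exons held 0 peaks by construction, 43.9% were near a transcript end and 68.6% of hosts had a promoter summit. Among the 4601 highest-scoring IDR peaks, the median rank of exonic peaks was 47.1% of these, 48.3% were near a transcript end, 95.4% were found in all 3 replicates and 44.1% of hosts had a promoter summit, counted among these only. Peak midpoints gave 45.6% near a transcript end, 57.1% of hosts with a promoter summit and 0 motifs that stood apart from flanks. Windows of 25 bp to either side gave 0 such motifs and 100 bp gave 2, against 1 with 50 bp. Recovery in all 3 replicates was 59.3% when a summit within 100 bp was asked for, 94.3% in full lists and 77.3% to 80.0% without 1 replicate, where both others had to hold the peak. A transcript end lay within 250 bp for 36.0% and within 1000 bp for 57.7%. Leaving out peaks in contact with promoter signal, an alternative added after seeing the data, gave an exonic share of 2.89%, a median rank of 56.4% and 58.3% of hosts with a promoter summit. The share of exonic peaks with AAAGCT was 18.7% within 25 bp and 41.0% within 100 bp of the summit, and that of coding peaks 24% and 56%. Peak midpoints gave 23.7% of exonic and 33.9% of coding peaks. With promoters ending at 250 bp these shares were 27.0% and 35.4%, and at 1000 bp 27.1% and 42.5%. When only the highest-scoring of overlapping peaks was kept, the coding share was 51.3%. Peaks near the end of the list were seldom found in every replicate, and the unknown depth limits any statement on peaks that were not found. No comparison between groups was possible because there was 1 group only, and the tested differences were taken within each replicate.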
